A study of Mus musculus with 32 samples.

Results

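The comparison described here set wild-type haematopoietic stem and progenitor cells (HSPCs) from leukaemia-experienced mice against the same cells from naive mice, both 24 hours after an injection of LPS. It used every sample labelled as LPS-treated, 16 of the 32 in the series, which are 2 technical libraries for each of 5 AF9-experienced and 3 naive biological replicates. One peak list stands for each replicate, so 8 of the 16 lists entered the comparison. The other 16 samples, from PBS-injected mice, served only as background.

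HSPCs were sorted as lineage-negative, cKit-positive and Sca1-positive bone marrow cells of CD45.1+/2+ C57BL/6J donors, and open DNA was mapped by ATAC-seq, in which a transposase inserts adapters into accessible chromatin. Each lethally irradiated CD45.2 C57BL/6J recipient received 800000 of these wild-type marrow cells. AF9-experienced mice (AF9+/+) also received 200000 CD45.1 marrow cells homozygous for human MLL-AF9 and for the doxycycline-responsive activator rtTA, and naive mice (AF9-/-) received the same number of CD45.1 cells with homozygous rtTA and no MLL-AF9. At 6 to 8 weeks after transplantation, all groups were given doxycycline for 5 weeks, which switches the fusion on where it is carried, and then 4 weeks without it, and mice were injected with LPS or PBS. By their labels the sorted cells carry no fusion gene in either group, and irradiation, transplantation and doxycycline were common to both. The age of the mice, the LPS dose and whether marrow was pooled are not given in the sources used here. The labels name the Omni-ATAC protocol for preparation and a single-cell Chromium chemistry for library construction, and the peak lists do not show how these were combined.

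The sorted compartment holds the blood-forming stem cells and the multipotent progenitors that descend from them. LPS, a component of the outer membrane of Gram-negative bacteria, is sensed through Toll-like receptor 4, which activates NF-kB, AP-1 and interferon regulatory factors and shifts blood formation towards myeloid cells. MLL-AF9 is a fusion oncoprotein of acute myeloid leukaemia that sustains a stem-cell-like programme including Hoxa9 and Meis1, and the design asks whether wild-type cells that shared the marrow with such a leukaemia respond to LPS in another way.

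The promoter windows of 6 genes are shown because the results refer back to them. Foxred2, H4f16 and Eif2b5 are those of the regions with the smallest p whose window carries a start site, the Cebpb region is listed at 0 in a single library, and Nfkbia and Socs3 are feedback inhibitors of the LPS response. Each is the 250 bases before the annotated start, 5′ to 3′ on the strand of the gene, from RefSeq (GRCm38.p6). Positions are chr15:77956723-77956972, minus strand (Foxred2), chr6:136804432-136804681, minus strand (H4f16), chr16:20498567-20498816, plus strand (Eif2b5), chr2:167688665-167688914, plus strand (Cebpb), chr12:55492648-55492897, minus strand (Nfkbia) and chr11:117969367-117969616, minus strand (Socs3). Capitals mark motif matches on either strand.
Foxred2: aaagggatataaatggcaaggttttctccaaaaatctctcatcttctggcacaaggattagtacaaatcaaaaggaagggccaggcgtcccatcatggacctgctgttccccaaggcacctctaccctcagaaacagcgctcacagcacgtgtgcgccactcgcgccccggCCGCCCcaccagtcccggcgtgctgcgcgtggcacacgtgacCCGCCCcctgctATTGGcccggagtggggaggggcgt
H4f16: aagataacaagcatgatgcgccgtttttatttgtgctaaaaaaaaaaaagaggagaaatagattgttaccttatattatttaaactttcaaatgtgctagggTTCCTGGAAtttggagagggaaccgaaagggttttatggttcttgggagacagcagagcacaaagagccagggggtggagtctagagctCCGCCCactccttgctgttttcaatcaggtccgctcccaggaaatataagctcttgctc
Eif2b5: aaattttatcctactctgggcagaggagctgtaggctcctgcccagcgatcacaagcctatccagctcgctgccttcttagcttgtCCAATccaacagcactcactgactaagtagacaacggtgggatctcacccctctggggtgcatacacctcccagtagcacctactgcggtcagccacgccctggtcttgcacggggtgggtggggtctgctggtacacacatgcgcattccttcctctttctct
Cebpb: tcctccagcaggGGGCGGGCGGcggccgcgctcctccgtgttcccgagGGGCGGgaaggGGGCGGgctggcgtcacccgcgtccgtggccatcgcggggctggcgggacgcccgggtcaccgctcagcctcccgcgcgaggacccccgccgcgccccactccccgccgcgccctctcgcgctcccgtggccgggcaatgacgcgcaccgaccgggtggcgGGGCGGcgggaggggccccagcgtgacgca
Nfkbia: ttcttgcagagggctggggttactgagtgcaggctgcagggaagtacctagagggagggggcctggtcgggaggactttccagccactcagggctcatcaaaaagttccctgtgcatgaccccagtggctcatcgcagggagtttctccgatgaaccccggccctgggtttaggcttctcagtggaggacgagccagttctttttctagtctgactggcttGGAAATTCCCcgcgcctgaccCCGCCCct
Socs3: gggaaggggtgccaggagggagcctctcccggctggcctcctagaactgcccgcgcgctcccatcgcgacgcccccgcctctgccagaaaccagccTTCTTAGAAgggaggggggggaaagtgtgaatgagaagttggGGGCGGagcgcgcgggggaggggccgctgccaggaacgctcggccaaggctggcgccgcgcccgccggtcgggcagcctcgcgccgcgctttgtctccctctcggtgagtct

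Capitals in the Foxred2 window are GC boxes (GGGCGG) and a CCAAT box (CCAAT), in the Eif2b5 window a CCAAT box, and in the H4f16 and Socs3 windows a STAT match (TTCNNNGAA) and a GC box. The Nfkbia window has an NF-kB match (GGG, any 2 bases, then TTTCC) and a GC box. The Cebpb window has 5 GC boxes, of which the first and the next overlap. Of 32851 RefSeq windows of this length, 32.7% hold the GC box, 33.8% the CCAAT box, 7.02% the STAT letters and 1.41% the NF-kB letters. Searches for AP-1 (TGANTCA), C/EBP (TTGCNNAA), CRE (TGACGTCA), ETS (CCGGAAG) and octamer (ATTTGCAT) letters, found in 6.75%, 9.56%, 1.55%, 6.91% and 1.6% of windows, gave no match in these 6. A match is a description of the letters and not evidence of binding.

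Lists differed in length, so each was cut to its 38762 strongest autosomal peaks by the authors' -log10 p, the number in the shortest of the 8 lists, and overlapping peaks were merged into 61005 regions. A region's value in a library is the percentile rank of its strongest peak in the cut list, from 100 for the strongest peak to 0 for no peak. In naive LPS 3, the shortest list, a 0 means no overlapping peak at all, while in the other libraries it can also stand for a weaker peak below the cut. The rank shows how a region stands among the other regions of its library, not how accessible it is, and in a sorted bulk population fewer cells with an open site and a less open site per cell cannot be told apart.

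The full lists held 86677, 69882, 61968, 60841 and 65905 peaks in AF9-experienced LPS 1 to 5 and 77057, 64742 and 39464 in naive LPS 1 to 3. The means were 69055 ± 10474 (SD, n = 5) and 60421 ± 19165 (n = 3), a difference of 8634 that did not pass an exact two-sided permutation test (p = 0.464; adjusted p = 0.696 over 3 single-value tests; smallest p possible 0.0357). Gene ends, meaning within 1 kb of either end of a protein-coding gene model, made up 30.7% ± 0.527 of the cut lists in AF9-experienced mice and 30.9% ± 1.20 in naive mice, a difference of -0.148 points (exact permutation p = 0.893; adjusted p = 0.893). Without naive LPS 3 the difference in peak number was -1845 (exact permutation p = 0.857).

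Naive LPS 3 stood apart from the other 7 libraries. Its weakest peak inside the cut had a -log10 p of 3.47, against 7.53 to 17.8 elsewhere. Its cut list had a median fold enrichment, the authors' value, of 4.49 against 6.13 to 9.74. The cut kept all its autosomal peaks but only the stronger ones of the others, so both gaps follow in part from list length. In the full lists the median fold enrichment was 4.50 against 4.65 to 5.86. Naive LPS 3 was listed at 0 in 29.1% of tested regions, against 12.4% to 16.5% in the others. Chromosome Y peaks, which took no part in the comparison, split the libraries in another way: 3 and 2 were listed in AF9-experienced LPS 1 and 2, 2 in each naive library and 0 in AF9-experienced LPS 3 to 5. The chromosome X share of peaks was 1.77% to 1.98% in the libraries with Y peaks and 2.02% to 2.08% in those without. Since no naive LPS library lacks Y peaks, what goes with this split cannot be told apart from exposure in AF9-experienced LPS 3 to 5. The markers chosen for HSPCs were present at 11 of 12 gene ends, 8 of them in all 8 lists, with no tested region at the end of Ly6a, which encodes the sorting marker Sca1.

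In a principal component analysis of the tested regions, component 1 (28.6% of variance) put naive LPS 3 at 3288 and the other libraries at -1043 to -134. Component 2 (20.1%) put AF9-experienced LPS 1 and 2 at 1526 and 1143, beside naive LPS 1 and 2 at 642 and 737. AF9-experienced LPS 3, 4 and 5 were at -1319, -1023 and -1261, with naive LPS 3 at -445. Neither component set the groups apart.

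**Figure D1:**
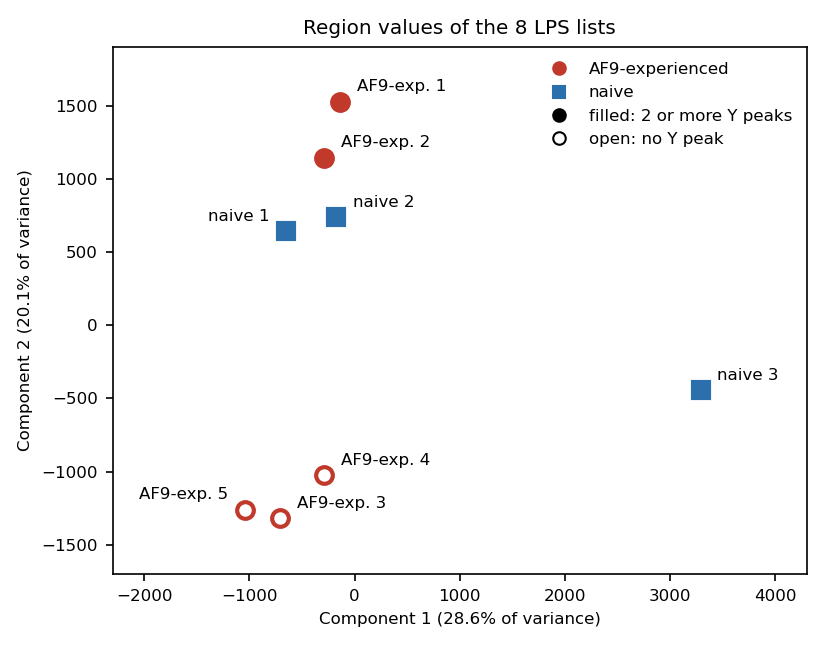
Position of the 8 LPS lists on the first 2 principal components, in component units, with circles for AF9-experienced and squares for naive libraries and filled symbols where a list has 2 or more chromosome Y peaks. Naive LPS 3 lies alone at 3288 on the first axis, and AF9-experienced LPS 1 and 2 lie nearer to naive LPS 1 and 2 than to AF9-experienced LPS 3 to 5 on the second.

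The Spearman correlation across tested regions, given as a description since the regions of a library share its depth and list length, was 0.912 between AF9-experienced LPS 1 and 2 and 0.885 to 0.906 between these and naive LPS 1 and 2. It was 0.825 to 0.865 between AF9-experienced LPS 1 and 2 and AF9-experienced LPS 3 to 5, and 0.767 to 0.819 between naive LPS 3 and all others. Among AF9-experienced LPS 3 to 5 it was 0.847 to 0.881 (mean 0.865), close to the 0.852 to 0.876 (mean 0.862) between these and naive LPS 1 and 2. The Jaccard index, the share of regions held by either of a pair of lists that both hold, averaged 0.702 within groups and 0.682 between groups. This difference of 0.0204 did not pass an exact one-sided permutation test over the 56 splits (p = 0.357; adjusted p = 0.696; smallest p possible 0.0179). Without naive LPS 3 it was -0.0148.

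No region was called between AF9-experienced and naive HSPCs after LPS. A peak in 3 or more lists was required for testing. Of the 41429 such regions, 22802 (55.0%) were in all 8, and limma called 0 of them higher and 0 lower at a Benjamini-Hochberg adjusted p under 0.05 (0% called; smallest adjusted p 0.928). At an unadjusted p under 0.05 it gave 1165 regions higher in AF9-experienced mice (2.81%) and 736 lower (1.78%). The values of the groups did not overlap in 632 regions with higher ranks (1.53%) and 622 with lower ranks (1.50%), 3.03% in all. The median difference over all tested regions was 0.18 percentile points, with 5th and 95th percentiles of -14.8 and 17.6.

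The precision sets what could have been seen. The SE of a difference had a median of 8.46 points (5th to 95th percentile 1.40 to 13.3), so that the 95% interval at the median SE reached 17.1 points to either side. A lone call would have needed a p of 1.2e-06, which at the median SE is a difference of 47.8 points. Gene ends were measured more tightly: their 12221 tested regions had a median SE of 3.53, and 81.5% were in all 8 lists. The 16248 regions inside genes had a median SE of 9.50, with 44.7% in all 8 lists. Median differences were -0.66 at gene ends, 1.37 inside genes, 0.89 within 50 kb of a gene and 2.07 beyond 50 kb.

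**Figure D2:**
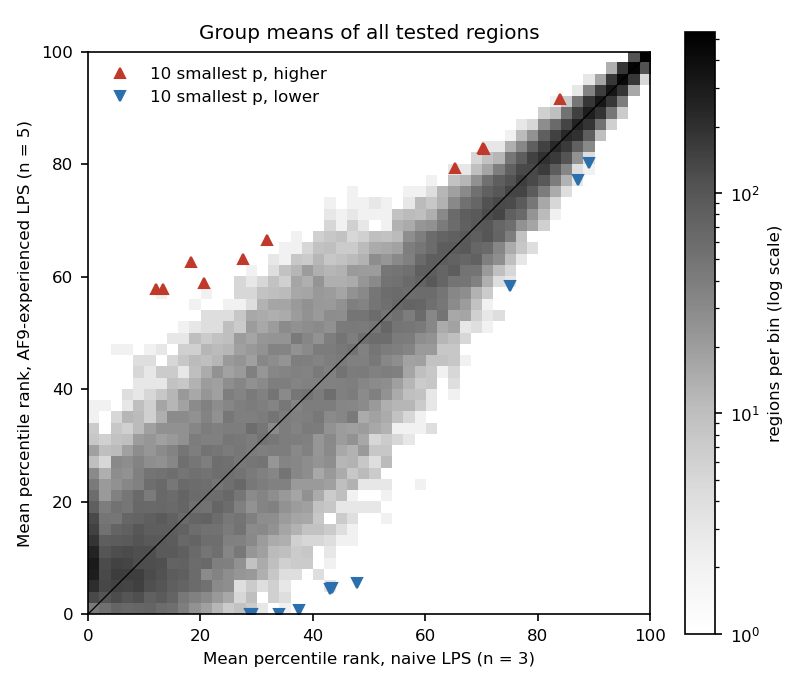
Mean percentile rank of all 41429 tested regions in naive LPS (x axis, n = 3) and AF9-experienced LPS (y axis, n = 5), with grey for the number of regions per bin on a log scale and triangles for the 10 regions with the smallest p in each direction. Regions lie closest to the diagonal at high ranks, and none of the marked regions was called.

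Regions with nominally higher ranks in AF9-experienced mice lay mostly away from gene ends (14.3% at gene ends, against 36.0% of those with nominally lower ranks and 29.5% of all tested regions). Of the 1165 higher regions, 546 (46.9%) were listed at 0 in naive LPS 3, against 25 (3.40%) of the 736 lower regions. Without naive LPS 3 the counts at an unadjusted p under 0.05 were 475 higher and 678 lower, with 0 called by limma. Without naive LPS 1 they were 2035 and 1064, again with 0 called.

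The smallest p for a higher rank, 0.00011, belonged to a region 55.3 kb from the nearest gene model, chr15:28081111-28081590. It ranked 55.5, 61.9, 70.7, 69.4 and 55.7 in AF9-experienced LPS 1 to 5 and 51.4, 3.94 and 0 in naive LPS 1 to 3. The AF9-experienced libraries were all higher, by means of 62.6 ± 7.27 (SD, n = 5) against 18.4 ± 28.6 (n = 3), and naive LPS 1 lay just below them. The difference was 44.2 points (SE 10.4; 95% interval 23.2 to 65.1; limma adjusted p = 0.928), and 35.0 without naive LPS 3. A further region on chr9:61664083-61664368, 245.6 kb from a gene model, ranked 44.1, 49.0, 71.5, 71.9 and 53.1 against 31.1, 5.31 and 0. It differed by 45.8 (SE 11.1) and was listed at 0 in all 6 PBS libraries long enough to be compared. Here too the groups did not overlap and naive LPS 3 was lowest.

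Inside Cdc37l1, which encodes a co-chaperone of the Hsp90 system, a region (chr19:29024298-29024792) ranked 47.1, 48.2, 70.3, 67.5 and 56.4 against 16.8, 23.2 and 0. The groups did not overlap, and the difference of 44.6 (SE 10.8; adjusted p = 0.928) was 37.9 without naive LPS 3. The strongest region of this set was at a start site of Foxred2, an oxidoreductase of the endoplasmic reticulum that takes part in protein degradation (chr15:77955849-77957121). It ranked 92.1, 91.2, 91.3, 92.1 and 91.2 in AF9-experienced mice and 87.6, 85.2 and 79.2 in naive mice. All 5 AF9-experienced values lay within a narrow band above the naive values, a difference of 7.57 (SE 1.86; 95% interval 3.81 to 11.3; adjusted p = 0.928). Its promoter window, 60% GC, lies wholly inside the region.

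The other 6 of the 10 regions with the smallest p for a higher rank also had groups that did not overlap. Nfatc2, a calcineurin-dependent transcription factor, held a region inside the gene at 49.2, 68.0, 54.6, 64.2 and 58.5 against 38.7, 23.6 and 0 (difference 38.2, SE 10.2). A region 30.8 kb from Vegfa, the vascular growth factor, was at 77.4, 75.9, 87.3, 85.9 and 87.9 against 72.9, 65.1 and 72.7 (difference 12.6, SE 3.30). In the Vegfa region AF9-experienced LPS 3 to 5 were the highest, and with only the libraries holding Y peaks the difference was 6.43. The gene end of Pla1a, a phosphatidylserine-specific phospholipase, stood at 77.9, 81.3, 84.5, 72.8 and 80.4 against 66.2, 62.6 and 67.2 (difference 14.1, SE 3.70). Pla1a differed by 15.0 without naive LPS 3 and by 14.3 in the libraries with Y peaks. Differences at the calcium channel subunit gene Cacnb4 (12.3, SE 3.17), 24.5 kb from the small GTPase gene Rhob (34.7, SE 8.90) and inside the adhesion scaffold gene Cass4 (35.7, SE 9.29) completed the set. Rhob differed by 18.8 and Cass4 by 22.1 without naive LPS 3. Naive LPS 3 was the lowest of the 8 libraries in 7 of these 10 regions and listed at under 1 in 6 of them.

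Among regions with lower ranks in AF9-experienced mice, the smallest p, 0.00087, was that of the gene end of H4f16, a histone H4 gene (chr6:136803333-136804541). It ranked 82.0, 82.2, 76.5, 77.8 and 83.3 against 85.8, 87.5 and 94.0. All naive values were above all AF9-experienced values, with means of 89.1 ± 4.31 (n = 3) and 80.3 ± 3.01 (n = 5) and a difference of -8.75 (SE 2.44; 95% interval -13.7 to -3.82; adjusted p = 0.928). Histone H4 genes are near-identical copies, and how reads shared between copies were counted is not given in the sources used here. The H4f16 promoter window is 42.8% GC, and 110 of its 250 bases lie in the region. The gene end of Eif2b5, the catalytic subunit of a translation initiation exchange factor (chr16:20498495-20499322), ranked 86.1, 76.4, 76.7, 75.6 and 71.8 against 89.2, 83.0 and 89.3. AF9-experienced LPS 1 lay within the naive range, so that the groups overlapped, and the difference was -9.83 (SE 2.88).

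A region inside Dpysl2, which encodes a microtubule-binding protein (chr14:66844499-66844985), was listed at 0 in all 5 AF9-experienced libraries and at 24.0, 35.5 and 42.1 in the naive libraries (difference -33.9, SE 9.89). A region inside the autophagy gene Atg5 was likewise at 0 in AF9-experienced mice and at 27.9, 22.0 and 37.6 in naive mice (-29.2, SE 9.12). Near Arl11, an Arf-like GTPase gene, naive values were 36.4, 19.4 and 30.9 and all AF9-experienced values 0 (-28.9, SE 9.10). These regions are of low to middle rank in naive mice, and for them an AF9-experienced 0 means only that no peak reached the cut. With no AF9-experienced peak, they met the requirement of a peak in 3 lists through the naive libraries alone. Their direction and lack of overlap were thus fixed by that requirement, and they were not tested when any naive library was left out. AF9-experienced LPS 1 alone held a peak of middle rank near Wapl, a cohesin release factor (24.7, 1.70, 0, 0 and 1.07 against 32.8, 57.0 and 53.6), and inside Ppm1d, a phosphatase of the p53 pathway (23.1 and 4 values of 0 against 45.2, 32.2 and 52.7). Differences inside Itgb3, an integrin subunit gene (-36.8, SE 10.9), near the calcium pump gene Atp2b4 (-38.5, SE 12.1) and inside Nfasc, a cell adhesion gene (-16.8, SE 5.31), made up the rest. At 3 of these places the value depended on how peaks were merged: with peaks merged over 14 lists, which add those of PBS mice, the overlapping region differed by 1.46 at Wapl, -0.621 at Itgb3 and 6.44 at Atp2b4. Naive LPS 3 was the highest library in 8 of these 10 regions. Over the 20 regions with the smallest p in either direction, groups did not overlap in 19, which was in part fixed by choosing them on p.

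**Figure D3:**
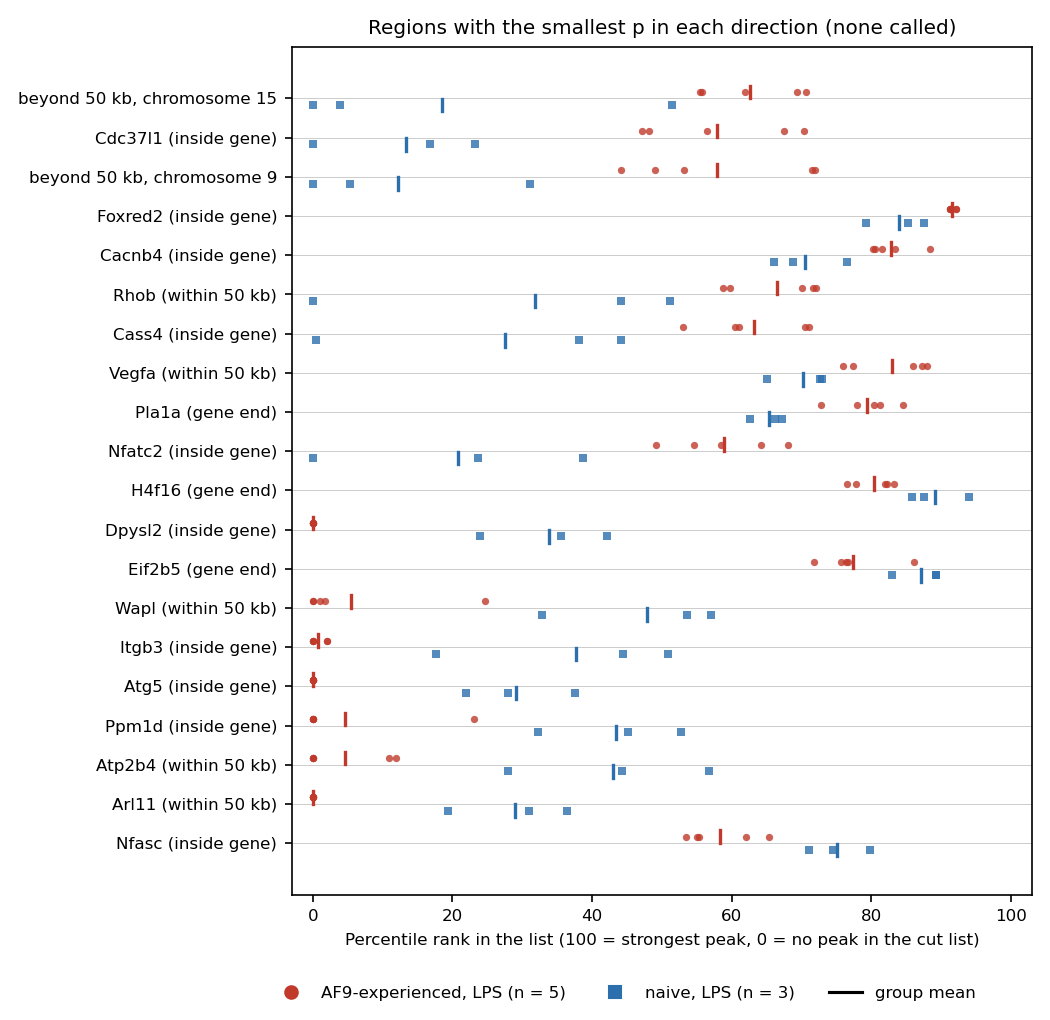
Percentile rank (x axis) of the 10 regions with the smallest p for a higher rank and the 10 for a lower rank, 1 row per region, with circles for the 5 AF9-experienced and squares for the 3 naive LPS libraries and a bar for each group mean. The groups overlap only at Eif2b5, and none of the 20 regions was called.

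Regions present in all lists of a group and none of the other were rare in both directions. A peak in all 5 AF9-experienced cut lists and in no naive cut list was found in 64 regions (0.154% of those tested), and the converse in 46 (0.111%). Each met the requirement of a peak in 3 lists through a single group, so its direction and lack of overlap were fixed in advance. Of the 64, the full list of naive LPS 1 held a weaker peak in 62 and that of naive LPS 2 in 46, while naive LPS 3, which has no peaks below the cut, held none. Of the 46, the full lists of AF9-experienced LPS 1 to 5 held a peak in 46, 38, 23, 21 and 34, and all 5 held one in 10.

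The 64 regions included the gene end of Tars2, the mitochondrial threonyl-tRNA synthetase, at 40.8, 25.6, 26.4, 41.9 and 35.3, and that of Elf3, an ETS transcription factor, at 26.6, 39.3, 19.6, 25.3 and 60.1. A region 9.0 kb from the translation termination factor gene Gspt1 was at 14.4, 34.3, 44.6, 40.3 and 50.4, and one inside the fatty acid transporter gene Slc27a6 at 9.21, 38.2, 42.7, 55.8 and 41.7. All 3 naive values were 0 in each of these. Filip1l, at 17.1 to 44.8 over the AF9-experienced libraries, and an unlinked region on chromosome 18, at 19.4 to 46.3, were the other two with the smallest p. Within the 46, beside Dpysl2, Atg5 and Arl11, regions lay inside the phospholipid flippase gene Atp8a1 (26.9, 31.6 and 21.6 in naive mice), 7.6 kb from Mapk1ip1 (24.1, 14.7 and 53.2) and 26.1 kb from Timm8a2 (14.3, 29.2 and 35.6).

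The LPS pathway was read through the gene lists, whose regions were linked by position to the nearest gene model within 50 kb. Nothing in the list of NF-kB and TLR signalling genes was called: of 105 regions linked to 29 measured members, 2 had nominally higher and 3 nominally lower ranks, groups did not overlap in 1.90%, and the median difference was 0.25. The corresponding values over all tested regions were 3.03% and 0.18. Its lowest p was that of a region inside Nfkb2, which encodes the NF-kB precursor p100 (chr19:46308864-46309327), at 45.7, 16.3, 32.7, 33.2 and 31.8 against 50.7, 61.5 and 72.5. All naive values were higher, by 29.6 points of mean difference (AF9-experienced minus naive -29.6, SE 10.3; p = 0.0064; limma adjusted p = 0.928). A region inside Il1b, the gene of the cytokine interleukin 1 beta (chr2:129367991-129368507), ranked 73.0, 71.7, 73.9, 74.0 and 58.6 against 59.4, 62.7 and 51.1. AF9-experienced LPS 5 fell inside the naive range while the other 4 lay above it, and the difference was 12.5 (SE 5.26; adjusted p = 0.928).

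Gene ends of the pathway's shared regulators held high ranks in both groups. The end of Tnfaip3, which encodes the NF-kB inhibitor A20, was at 96.6, 96.8, 97.5, 97.6 and 94.4 against 97.1, 96.4 and 93.6, a difference of 0.879 (SE 1.24). Nfkbia, the gene of the inhibitor IkB alpha, whose promoter window carries the NF-kB match, was at 86.1, 84.9, 82.4, 87.4 and 76.5 against 82.0, 85.9 and 87.7 (difference -1.74, SE 2.44). Groups overlapped at both. Nfkb1, the gene of the precursor p105, was at 81.8, 82.1, 73.1, 79.2 and 48.3 against 78.0, 73.1 and 79.7, where AF9-experienced LPS 5 was the low value and the difference of -4.04 (SE 7.61) was 2.11 without it.

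Interferon genes and interferon regulatory factors gave 93 linked regions with 0 called, a median difference of 0.71 and 3.23% of groups apart. A region 3.8 kb from Trim25, a ubiquitin ligase of antiviral signalling, was at 63.3, 70.2, 75.2, 73.1 and 76.0 against 65.6, 62.7 and 37.0, and its difference of 16.5 (SE 5.69) was 7.46 without naive LPS 3. Near Irf2, a repressor of interferon responses, values of 54.9 to 63.9 stood against 48.6, 41.9 and 0 (difference 28.0, and 12.9 without naive LPS 3). The gene end of Irf1, an activator of interferon-stimulated genes, was at 92.5, 89.8, 93.7, 93.7 and 95.3 against 94.2, 89.0 and 87.1 (difference 2.89, SE 1.64), and that of Irf8, a factor of monocyte fate, differed by 2.10 (SE 2.81). Groups overlapped at Irf1, Irf8 and Trim25.

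AP-1 and immediate early genes had 101 linked regions, 0 called, with a median difference of -0.18 and 3.96% of groups apart. At the gene end of Fosb, an AP-1 subunit, AF9-experienced values of 19.7, 28.9, 0, 40.5 and 23.6 were all below naive values of 46.2, 48.5 and 66.5 (difference -31.1, SE 12.2). A region 13.7 kb from the subunit gene Fosl2 stood at 43.6, 47.6, 0, 20.4 and 37.1 against 58.5, 57.9 and 50.6 (-25.9, SE 11.5), and at -10.1 in the libraries with Y peaks. The ends of Fos and Junb did not show this: Fos was at 89.6, 89.4, 90.8, 91.0 and 90.9 against 88.5, 91.7 and 88.3 (0.835, SE 1.65), and Junb differed by -1.07 (SE 1.95). Groups overlapped at Fos and Junb.

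Receptors and IL6-STAT3 genes gave a median difference of -0.14 over 110 regions, with 0.909% of groups apart. A region inside Flt3, the receptor tyrosine kinase of multipotent and lymphoid progenitors (chr5:147366062-147366773), ranked 72.7, 72.0, 84.2, 82.3 and 87.3 against 64.4, 73.3 and 66.7. The highest values were those of AF9-experienced LPS 3 to 5, groups overlapped, and the difference of 11.6 (SE 3.78; p = 0.0038; limma adjusted p = 0.928) was 4.23 in the libraries with Y peaks. The Flt3 gene end stood at 93.8, 93.6, 91.9, 94.1 and 92.9 against 92.2, 89.7 and 87.6 (difference 3.43, SE 1.52). Socs3, the feedback inhibitor of IL-6 signalling with the STAT match in its window, had a gene end at 89.1, 88.9, 92.9, 90.7 and 91.6 against 92.6, 91.3 and 83.4. Its groups overlapped, and the difference was 1.56 (SE 1.83) and -1.28 without naive LPS 3. Csf1r, which encodes the M-CSF receptor, held a region inside the gene that differed by 23.9 (SE 12.6), by 7.54 in the libraries with Y peaks and by 13.9 without naive LPS 3.

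Genes of the leukaemia programme were examined in wild-type cells. The MLL-AF9 target list gave 116 regions with 0 called, a median difference of 0.24 and 6.90% of groups apart (3 higher and 5 lower) against 3.03% of all tested regions. Inside Jmjd1c, a histone demethylase family gene, values were 0, 3.63, 28.9, 0 and 0 against 47.1, 37.1 and 41.2 (-35.3, SE 12.3). Inside Runx2, a Runt family transcription factor gene, they were 42.7, 52.9, 42.9, 60.6 and 22.8 against 26.8, 0 and 3.54 (34.2, SE 12.5). Jmjd1c groups did not overlap, whereas AF9-experienced LPS 5 fell below naive LPS 1 at Runx2. The gene ends of Hoxa9 and Meis1, homeobox genes at the core of the programme, overlapped between groups: Hoxa9 was at 64.7, 76.5, 71.9, 70.6 and 72.3 against 70.6, 61.2 and 71.8 (3.36, SE 4.40). Meis1 was at 69.9, 81.6, 77.2, 77.5 and 83.0 against 76.1, 76.4 and 73.1 (2.64, SE 3.36), and the end of the cell cycle kinase gene Cdk6 differed by -6.09 (SE 5.02), or -2.45 without naive LPS 3 and 1.03 with fixed windows.

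Stem cell identity genes gave 116 regions, 0 called, with a median difference of 0.82 and 2.59% of groups apart. A region 3.5 kb from Tal1, a transcription factor needed for blood stem cell formation, was at 37.7, 11.8, 13.8, 39.9 and 42.1 against 0 in every naive library (difference 29.1, SE 12.1). With no naive peak, the Tal1 region was tested through its AF9-experienced peaks alone, which fixed its direction. The stem cell regulator gene Prdm16 held a region inside the gene at 46.2, 46.8, 51.7, 64.9 and 63.5 against 58.7, 34.5 and 0, and its difference of 23.6 was 8.03 without naive LPS 3. The gene ends of Mecom and Kit differed by -0.772 (SE 2.17) and 1.11 (SE 2.20), with overlapping groups. In the niche list, 64 regions had a median difference of -0.64 and 4.69% of groups apart. Esam, an adhesion molecule of stem cells and endothelium, was at 61.1, 53.1, 65.9, 67.1 and 63.1 against 48.7, 52.9 and 0, a difference of 28.2 that was 11.3 without naive LPS 3. The end of Cxcr4, the receptor that holds stem cells in marrow, differed by -2.51 (SE 3.16).

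Myeloid fate genes followed. The granulocyte-monocyte list had 67 regions, 0 called, a median difference of 0.78 and 1.49% of groups apart. A region 37.5 kb from Klf4, a factor of monocyte differentiation, was at 75.3, 73.4, 84.4, 76.5 and 78.2 against 76.6, 66.8 and 60.9 (9.49, SE 3.89; 5.88 without naive LPS 3). A region inside Ms4a3, a gene of granulocyte-monocyte progenitors, was at 15.5, 9.30, 0, 7.24 and 35.2 against 50, 46.0 and 30.5 (-28.7, SE 12.7). At both, a single library put the groups in overlap: naive LPS 1 at Klf4 and AF9-experienced LPS 5 at Ms4a3. The end of Cebpa differed by 0.923 (SE 1.84) and that of Spi1, which encodes PU.1, by 0.0354 (SE 3.33), with overlapping groups and 10 of 22 alternative analyses on the other side of 0 for Spi1.

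The gene end of Cebpb, a factor of emergency granulopoiesis (chr2:167688075-167690167), was at 73.8, 69.6, 64.7, 73.8 and 0 against 69.7, 67.2 and 79.5. Only AF9-experienced LPS 5 was low; the difference of -15.8 (SE 18.6; 95% interval -60.8 to 29.2) was -1.71 without it. Its promoter window is 81.6% GC. GC content was set against rank in the 8730 regions that were in all 8 lists and overlapped a promoter window. The Cebpb region, at 0 in AF9-experienced LPS 5, was not among them. In this set AF9-experienced LPS 5 ranked the GC-richest windows, above 65.2%, 5.75 points below the mean of the 8 libraries (mean deviation -5.75). In windows below 57.2% its mean deviation was 0.09. Its Spearman correlation with GC across these regions was -0.33. In naive LPS 3 the deviations were 4.01 and 1.19 (correlation 0.19). The part of GC content in the differences reported here was not tested.

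Lymphoid and erythroid genes showed the same scatter. Lymphoid priming gave a median difference of 0.67 over 81 regions and 1.23% of groups apart. Its region 34.9 kb from Tcf7, a transcription factor of T cell development, was at 64.0, 60.2, 68.4, 71.2 and 73.0 against 55.0, 51.6 and 55.4, with no overlap (13.4, SE 5.71). The 51 megakaryocyte-erythroid regions had a median difference of 0.53 and no groups apart. The ends of Car1, a carbonic anhydrase gene of red cell precursors, and Ank1, the red cell ankyrin gene, differed by -31.9 (SE 12.9) and -21.6 (SE 9.62), and Car1 by -13.0 in the libraries with Y peaks.

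Antigen presentation had the largest share of groups apart among the 20 lists, 11.1% of 45 regions (1 higher and 4 lower) against 3.03% of all tested regions, with a median difference of 1.13 and 0 called. Inside Ciita, the master activator of MHC class II genes, values were 0, 13.3, 0, 9.25 and 1.33 against 32.7, 31.0 and 37.5 (-29.0, SE 11.1). Inside the class II gene H2-Ab1 they were 21.1, 21.9, 36.0, 32.4 and 1.11 against 40.0, 42.0 and 71.3 (-28.6, SE 12.4), a difference that was -18.5 without naive LPS 3 and -0.467 with peaks merged over 14 lists. The end of B2m, the light chain of MHC class I, was at 88.0, 88.4, 87.4, 86.3 and 88.7 against 89.1, 93.1 and 90.3 (-3.09, SE 1.76). Groups did not overlap at these 3 regions. The end of Cd74, the class II invariant chain, ranged from 13.4 to 43.9 in AF9-experienced and from 0 to 54.7 in naive libraries and differed by 1.69 (SE 13.1), or -12.6 without naive LPS 3.

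Cell cycle, chromatin and metabolic genes had median differences of 0.30, 0.58 and 0.41 over 71, 67 and 90 regions, with 4.23%, 1.49% and 2.22% of groups apart. Cdkn1b, a cyclin-dependent kinase inhibitor gene, had its end at 89.4, 91.9, 90.8, 90.4 and 85.4 against 92.8, 95.9 and 90.8 (-3.59, SE 1.69), while a region 31.1 kb from the cyclin gene Ccnd1 differed by 7.54 (SE 2.66). A region inside Arid1a, a SWI/SNF remodeller subunit gene, was at 65.5, 63.8, 67.3, 69.4 and 68.9 against 58.9, 52.4 and 41.3, without overlap (16.1, SE 6.05). The end of the histone demethylase gene Kdm5b differed by -20.8 (SE 9.85) with overlapping groups. Pkm, the pyruvate kinase gene of glycolysis, had its end at 83.5, 83.1, 86.6, 82.5 and 87.2 against 89.0, 88.2 and 92.2, again without overlap (-5.25, SE 2.02), and a region 31.1 kb from the glucose transporter gene Slc2a1 differed by 15.3 (SE 5.80), or 6.04 without naive LPS 3. None was called.

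Marker lists of other cell types, and housekeeping genes as controls, gave values of the same order. Median differences were 2.29 over 17 neutrophil granule regions, 1.89 over 25 monocyte-macrophage regions, 1.37 over 22 mast cell and basophil regions, -1.19 over 17 mature lymphocyte regions and 2.43 over 33 endothelial and stromal regions. In the same order 0%, 4.00%, 0%, 5.88% and 6.06% of groups were apart. Housekeeping genes had a median of 0.33 over 27 regions with 3.70% apart, and the Gapdh end differed by 23.3 (SE 12.2), from 26.8, 40.1, 13.9, 31.7 and 30.9 to 4.05, 12.0 and 0 (0.723 with peaks merged over 14 lists). The differences in other lists were Siglec1 at 36.0 (SE 11.0), Egfl7 at 16.6 (SE 6.38), Pecam1 at 13.0 (SE 6.87), Klrb1c at 21.3 (SE 8.81), Eomes at -15.4 (SE 7.93), Gata2 at 15.8 (SE 11.5), Prss34 at -25.3 (SE 12.9), Ltf at 4.34 (SE 2.78), Fpr2 at 4.52 (SE 3.04), Itgb2 at 29.5 (SE 12.7) and Ywhaz at 5.51 (SE 2.80). Without naive LPS 3, Gata2 differed by -5.39, Klrb1c by 7.49, Egfl7 by 6.89, Fpr2 by 1.67, Ltf by 2.39 and Ywhaz by 2.92.

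As gene-end ranks averaged over a whole marker list, with untested ends at 0, neutrophil markers stood at 4.26 to 10.0 in AF9-experienced and 5.49 to 8.17 in naive libraries, and HSPC markers at 53.1 to 55.2 and 52.2 to 53.2. Only 2 of 10 neutrophil ends were tested, with Camp, Ngp, Ltf, Lcn2, Cd177, S100a8, S100a9 and Retnlg not tested (a peak in fewer than 3 lists). Monocyte-macrophage markers (7 of 8 tested) ranged over 40.2 to 47.8 and 39.4 to 42.6. Mature T and NK markers (5 of 9; Cd3e, Cd3g, Cd8a and Ncr1 not) ranged over 21.0 to 27.7 and 18.0 to 27.1. Erythroid markers (3 of 7, with Slc4a1 and the globin ends not tested and Gata1 on chromosome X outside the autosomal set) ranged over 29.4 to 33.2 and 33.2 to 34.9. Mast cell and basophil markers (2 of 5) ranged over 0 to 13.9 and 2.21 to 5.69, and endothelial and stromal markers (3 of 8, with Cdh5, Tie1, Emcn, Lepr and Cxcl12 not tested) over 18.0 to 22.9 and 20.4 to 21.4. These averages hide a wide spread among tested ends, given here as AF9-experienced and naive means. Cd3d was at 89.6 and 86.4 but Tbx21 at 7.04 and 19.5. Klf1 was at 92.9 in both groups but Ank1 at 37.9 and 59.5. Mmp8 was at 57.8 and 55.5 but Padi4 at 13.8 and 15.9. An open gene end does not show expression, and the part of other cell types in the differences was not tested.

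Over the 20 lists, medians ran from -1.19 to 2.43, of which 16 were positive and 4 negative, against 0.18 for all tested regions. Of the 38 regions chosen through the lists, 24 had higher and 14 lower means in AF9-experienced mice, and groups did not overlap in 16, which the choice by smallest p favours. None of the 20 lists had a called region.

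**Figure D4:**
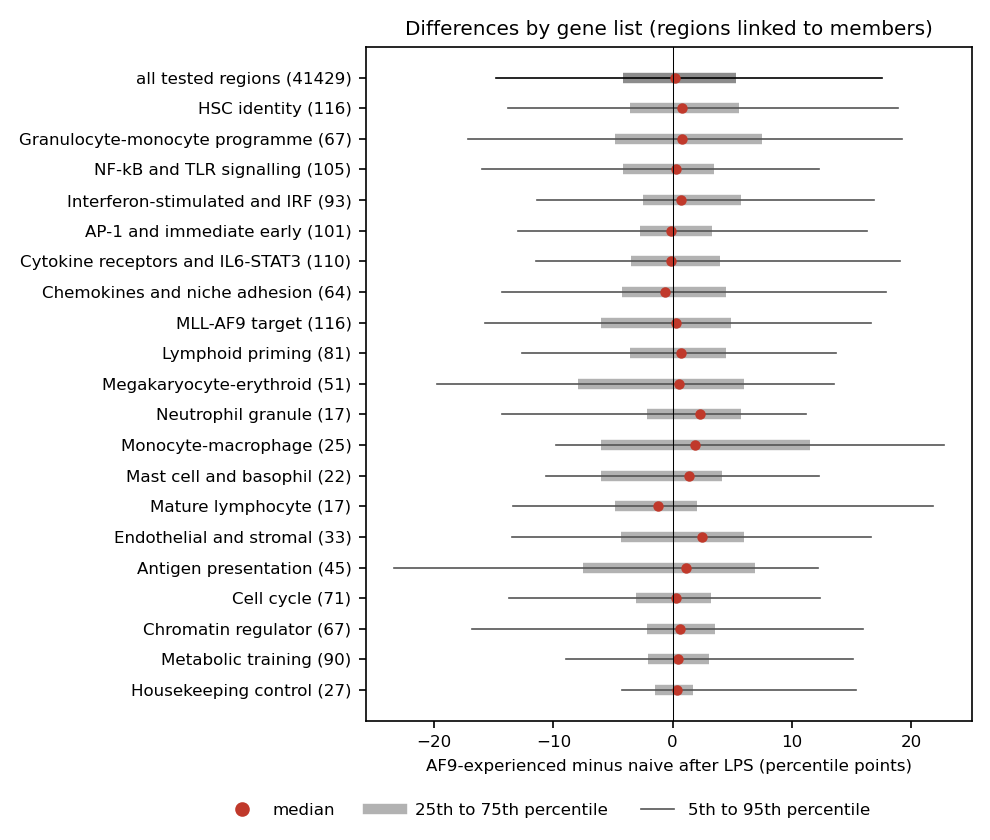
Difference between AF9-experienced and naive LPS libraries, in percentile points (x axis), over all tested regions and over the regions linked to each of 20 gene lists, with the number of regions in parentheses, a point for the median, a thick bar for the 25th to 75th percentile and a thin line for the 5th to 95th. Medians run from -1.19 to 2.43 beside 0.18 for all regions.

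The gene ends of 20 chosen genes were examined whatever their difference, each through its strongest gene-end region. Groups did not overlap in 3.03% of all tested regions. Among the 12221 tested gene-end regions they did not overlap in 126 with higher and 224 with lower ranks. Of the 20 chosen ends, groups overlapped at 19, with B2m the exception, and 18 were in all 8 lists. Means were higher in AF9-experienced mice at 12 and lower at 8, with differences from -15.8 (Cebpb) to 3.43 (Flt3), and 11 had a mean of at least 80 in both groups. The lowest adjusted p among them was 0.928 (limma). Without naive LPS 3 the ends of Cebpa, Kit and Tnfaip3 differed by -0.853, -0.504 and -0.182 in place of 0.923, 1.11 and 0.879.

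**Figure D5:**
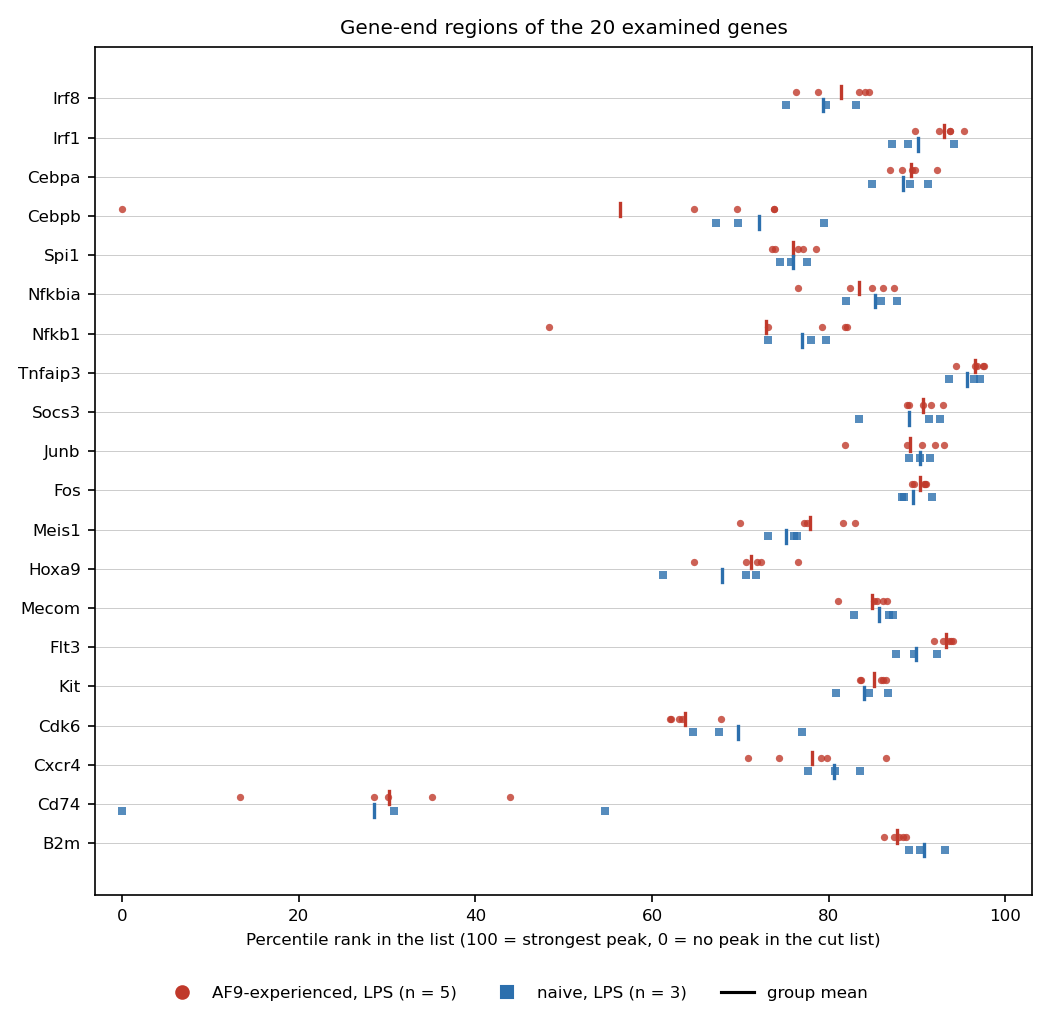
Percentile rank (x axis) of the strongest gene-end region of 20 genes in the 5 AF9-experienced (circles) and 3 naive (squares) LPS libraries, with bars for group means. Groups overlap at 19 genes, B2m being the exception, and a lone AF9-experienced library is low at Cebpb (0) and Nfkb1 (48.3).

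PBS-injected mice gave the background without LPS. In a fit over the 14 lists of at least 38762 peaks, which leaves out replicate 1 of each PBS group, 46997 regions were tested, and AF9-experienced and naive HSPCs after PBS (n = 3 each) differed in 0 called regions (0%; smallest limma adjusted p 0.362; 1258 at an unadjusted p under 0.05). Whether the AF9-experienced minus naive difference changed between PBS and LPS was tested as an interaction, with 0 regions called (0%; smallest adjusted p 1; 1610 at an unadjusted p under 0.05). The LPS and PBS differences, which share no library, had a Pearson correlation of 0.100 across the 46997 regions, which are not independent replicates. LPS minus PBS was called in 4204 regions in naive mice (8.95%) and 4333 in AF9-experienced mice (9.22%), so that the same fit called many regions between treatments. PBS libraries had 0 or 1 Y peaks. The full PBS lists in this fit also had a median fold enrichment of 8.08 to 9.67, against 4.50 to 5.86 in the LPS lists. Treatment thus cannot be told apart from these differences between libraries. Their part in the treatment calls was not tested here.

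After PBS, the region inside Nfatc2 was at 69.8, 68.2 and 71.1 in AF9-experienced PBS 2 to 4 and 73.1, 69.7 and 64.2 in naive PBS 2 to 4. The interaction at Nfatc2 was 37.5 (SE 10.4; limma adjusted p = 1). Slc27a6 was at 53.9, 68.0 and 59.2 against 70.6, 68.3 and 53.9 after PBS, and Dpysl2 at 8.00, 15.1 and 39.9 against 7.53, 0 and 6.56 (interaction -50.2, SE 11.5; adjusted p = 1). At Cdc37l1 and Atg5 all 6 PBS values were 0. All these regions were chosen for their LPS differences, and the same LPS values enter the interactions. The size of these interactions was thus in part fixed by the choice. Klf4 and Il1b regions rose after LPS in both backgrounds, Klf4 by 42.4 in naive (adjusted p = 0.00106) and 48.2 in AF9-experienced mice (adjusted p = 0.000111) and Il1b by 45.2 (adjusted p = 0.00595) and 52.5 (adjusted p = 0.000785). Their interactions were 5.84 (SE 9.21) and 7.30 (SE 12.8), neither called. The rises at Klf4 and Il1b carry the limit of all treatment calls, since PBS and LPS libraries also differed in fold enrichment.

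Calls appeared under 2 alternative analyses. With fixed 500 bp windows around summits, a window beside the histone H4 gene H4c11 was called higher (63.7, SE 10.8; adjusted p = 0.0310), at 58.9, 62.0, 61.2, 65.7 and 70.8 against 0 in all naive libraries. As a merged region that place differed in the other direction, at 72.5, 64.9, 71.4, 65.7 and 70.8 against 73.9, 81.4 and 78.9 (-9.01, SE 3.93; adjusted p = 0.928), so the direction differed with how peaks were merged. With all 16 lists cut to 19100 peaks and 4 groups sharing 1 spread, an analysis added after seeing the data, 3 regions inside genes were called lower: Akap13, an A-kinase anchoring protein gene (-29.3; adjusted p = 0.0269), Rnf180, a ubiquitin ligase gene (-29.1; adjusted p = 0.0101), and Fyb, a T cell adaptor gene (-26.9; adjusted p = 0.0101). All 8 PBS lists were at 0 in these regions at that length, and these zeros, which have no spread, enter the spread shared by the 4 groups. The SEs were 4.77, 4.18 and 3.98 for Akap13, Rnf180 and Fyb, against 7.96, 8.61 and 8.32 in the reported analysis. Akap13 was also at 0 in all 5 AF9-experienced LPS lists, so it met the requirement of 3 lists through naive LPS alone. How far the calls rest on these zeros was not tested. In the longer lists Akap13 was at 50.3, 43.7, 34.2, 49.7 and 45.1 against 60.2, 72.4 and 63.0, Rnf180 at 47.8, 44.5, 35.4, 24.9 and 53.1 against 62.9, 65.5 and 68.2, and Fyb at 43.1, 52.8, 32.6, 34.2 and 52.2 against 65.9, 64.1 and 64.0. Groups did not overlap at any of the 3, and the differences of -20.6, -24.4 and -21.7 were not called (limma adjusted p = 0.928 each).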

How the data were processed

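Samples were grouped by the labels' titles and treatment, and each peak list was matched to its replicate by name. The members, gene lists and tests were chosen with earlier results of these data known. Reads were processed with FastQC, Trim Galore, BWA, Picard and MACS3 on build GRCm38, per the submitters' processing notes, without versions; filters and the joining of technical libraries are not given in the sources used here. Per peak, the deposited lists hold the authors' fold enrichment (a ratio to the background of the same library) and the authors' -log10 p and -log10 q, none of them scaled between libraries. Read depth cannot be had from peak lists, so no counting interval was given.

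From these, lists were cut to equal length, merged and ranked, and a mean per group was fitted with limma 3.58.1 (R 4.3.3; empirical Bayes with trend and robust options) on regions with a peak in at least 3 of 8 lists, Benjamini-Hochberg adjusted over all of them. The code was tested on simulated data. P-values measure the spread between samples labelled as biological replicates. Single values were compared by exact permutation with scipy 1.17.1. Genes and gene ends came from RefSeq (GRCm38.p6; 20665 protein-coding models), whose table gives no strand, and 362 of 370 listed genes matched. Regions beyond 50 kb of a model were left unlinked. Named were the 10 regions with the smallest p in each direction, the 2 members with the smallest p of each list, up to 6 regions held by all lists of a group and none of the other, and 20 chosen gene ends. Of the 8 marker lists, the results of 1 are not reported here. Alternatives were other ranking, list length, merging, minimum, presence, left-out libraries, weights, a replicate block and a Y-peak covariate. Presence was fitted with neither trend nor robust option and without regions held by every list, a change made after seeing the data.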

Additional observations from a re-analysis of the deposited data

Results flagged for a closer look

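In 10 of the 90 sets of 5 AF9-experienced values checked, a library lay far from the other 4 by Dixon's gap criterion. Chance flags about 1 in 20 where values are normally distributed, which percentile ranks with many zeros are not. At Ppm1d and Kdm5b the other 4 values are all 0, where any value above 0 meets the criterion. Where all 5 values are 0, as at Dpysl2, Atg5 and Arl11, none can be flagged. The 10 of 90 can thus not be weighed against that rate. AF9-experienced LPS 5 was the low library at the Cebpb end (0 against 64.7 to 73.8), the Nfkb1 end (48.3 against 73.1 to 82.1), the Mecom end (81.0 against 85.1 to 86.6) and the Il1b region (58.6 against 71.7 to 74.0). AF9-experienced LPS 1 was the high library near Wapl (24.7 against 0 to 1.70), inside Ppm1d (23.1 against 0) and near Prss34 (39.6 against 0 to 10.7). AF9-experienced LPS 3 was high inside Jmjd1c (28.9 against 0 to 3.63), AF9-experienced LPS 4 at the Kdm5b end (15.1 against 0) and AF9-experienced LPS 2 at the Cdk6 end (67.8 against 62.0 to 63.4).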

How the results depend on the processing

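Limma called 0 regions under the alternatives run, except 1 higher with fixed windows (adjusted p = 0.0310) and 3 lower with all 16 lists (adjusted p = 0.0101 to 0.0269). The interaction gave 0 calls with all 16 lists or ranked by fold enrichment. Counts at an unadjusted p under 0.05 were 1165 higher and 736 lower of 41429 regions tested in the reported analysis. The number of regions tested differed between settings, so a smaller count is not by itself a smaller share. Higher and lower counts were 509 and 408 of 20854 at 19381 peaks per list and 503 and 405 of 20526 at 19100. They were 606 and 439 of 22802 for regions in all 8 lists and 676 and 592 of 23554 with all 16 lists. As presence they were 446 and 121 of 39790 in full lists and 778 and 190 of 18627 in equal-length lists. Where a -log10 q of 5 or more was required they were 225 and 32 of 32493. They were 2234 and 1742 of 46997 with 14 lists and 4 groups, and 719 and 540 of 36355 with only the libraries holding Y peaks. Lower regions were the more numerous without naive LPS 3 at 59609 peaks (724 and 1041 of 59316) and with library weights (1266 and 1485 of 41429). The cause was not tested.

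Leaving out 1 library gave 475 (without naive LPS 3) to 2035 (without naive LPS 1) higher and 517 to 1064 lower. The difference in peak number ran from -1845 to 16952, in gene-end share from -0.604 to 0.534 and in list similarity from -0.0148 to 0.0602. Without naive LPS 3 all 3 changed sign, with the gene-end share at 0.534 (0.00301 without AF9-experienced LPS 5). Correlations of same-numbered deviations between the groups were 0.00601, 0.0111 and 0.0156, within the -0.118 to 0.137 of differently numbered ones. Whether replicate numbers mark shared batches was not tested. With the replicate block 714 and 473 regions had an unadjusted p under 0.05 and 0 were called. Of 1864 values of the 87 named regions under alternatives, 1808 kept their direction and 56, none called in either analysis, did not. Apart from the 20 chosen gene ends, these regions were picked on p or presence in the same libraries, which the alternatives reuse. Agreement in direction was thus in part fixed in advance. An alternative in which a region was not tested gave no value. Without some 1 library, 37 of the 87 differences moved by over 1.5 times or changed sign, 31 of them without naive LPS 3. The lists give no read depth; the median SE was 8.46 points over all regions and 3.53 at gene ends.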
